A study of Mus musculus with 4 samples.

Results

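Cytochrome P450 genes of families 2, 3 and 4 were examined in the ears of mice exposed to diesel exhaust particles (DEPs). The members were all genes whose mouse symbol is Cyp followed by 2, 3 or 4, a subfamily letter and a number. The array carried probes for 68 of the 73 such genes in the RefSeq table used for names, out of 20967 named genes on the whole array. These 68 genes had 88 probes, and 16 genes had several. A RefSeq accession on the array matched none of Cyp2a5, Cyp2c40, Cyp2c69, Cyp2j12 and Cyp2j7. By family, 44 genes belonged to family 2, 7 to family 3 and 17 to family 4.

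RNA was compared on 4 two-colour arrays. By the source names in the labels, the red dye Cy5 marked the RNA of a DEP-treated ear on each array, and the green dye Cy3 marked that of a control ear given no treatment. The labels conflict here, because their treatment fields place DEP and no treatment both under Cy5 and leave Cy3 without an entry, and the source names were used. These are called the DEP channel and the control channel below. The study's methods name male BALB/c mice, 6 to 10 weeks old, and 9 mice in all. DEPs were inhaled for 1 h a day on 5 days. The mice were killed on day 14, when the bone around the middle ear was taken with it, so that an extract can hold bone marrow, muscle, skin, nerve and mucosa. How many mice stand behind an extract is not given in the sources used here, and p-values measure the spread between these arrays. No array had its dyes swapped, so an effect of dye and an effect of exposure cannot be told apart. In a dissected tissue, fewer cells of a type and less RNA per cell cannot be told apart either.

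All ratios below are log2 ratios of the DEP channel to the control channel, so that a value of 1 is a 2-fold higher level in the former. The direction follows the source names of the channels. For the genes checked here, CHRM1 and ESR1, it runs against that of the study. The study's array results and its qRT-PCR both have CHRM1 raised and ESR1 lowered. In the labelled ratio, the mean of the brightest probe of Chrm1 was -1.21 ± 1.35 (SD, n = 4 arrays) and that of Esr1 was 0.46 ± 0.23 (SD, n = 4 arrays). Chrm1 was not uniform and read 0.14 on array 2. If the channels were exchanged, every sign below would turn, and each higher count with its share would become a lower one. The 4 arrays were not alike. Pearson's r over all probes, which are not independent replicates, was highest for arrays 1 and 2, at 0.61, and lowest for arrays 1 and 4, at -0.22. The other pairs of arrays gave r from 0.14 to 0.38. Results are therefore given array by array, and with array 1 or array 4 left out where that matters.

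Cytochrome P450 enzymes are haem proteins that insert an oxygen atom into fatty acids, steroids, vitamins and foreign chemicals. Electrons reach them from P450 reductase, encoded by Por, and from cytochrome b5. Many members of families 2 and 3 are liver enzymes switched on by the receptors CAR (Nr1i3) and PXR (Nr1i2). Family 4 enzymes mostly hydroxylate the far end of fatty acids and of eicosanoids such as leukotrienes. Other members are known from lining tissues, among them the airway, the nose and the skin, where they meet inhaled chemicals or build barrier lipids.

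Of the 68 genes, 28 had a probe well above background in both dyes of every array, which is called fully measured below. For 15 genes a probe was so on some arrays or in some channels, and for 25 none was on any array. The share differed by subfamily. Of the 13 Cyp2c genes with a probe, 2 were fully measured and 8 were above background nowhere. In the Cyp2j subfamily 4 of 6 genes were measured throughout, and in the Cyp4f subfamily 5 of 9. The single genes of Cyp2e, Cyp2f, Cyp2g, Cyp2r, Cyp2s, Cyp2t, Cyp4b and Cyp4v were each measured throughout. Family 2 had 17 such genes, family 3 had 2 and family 4 had 9. Absence above background says that a level was not detectable at this signal. Among the 8 hepatocyte markers, Alb, Apoa1 and Apob were not well above background in any channel of any array, while Ttr, Serpina1a and Tat were so in all. Ahsg and Fgb were above background in some channels. The signal of Ttr ranged from 215 to 21921 between channels, with ratios of -4.37, -4.25, 0.49 and 1.04.

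**Figure D1:**
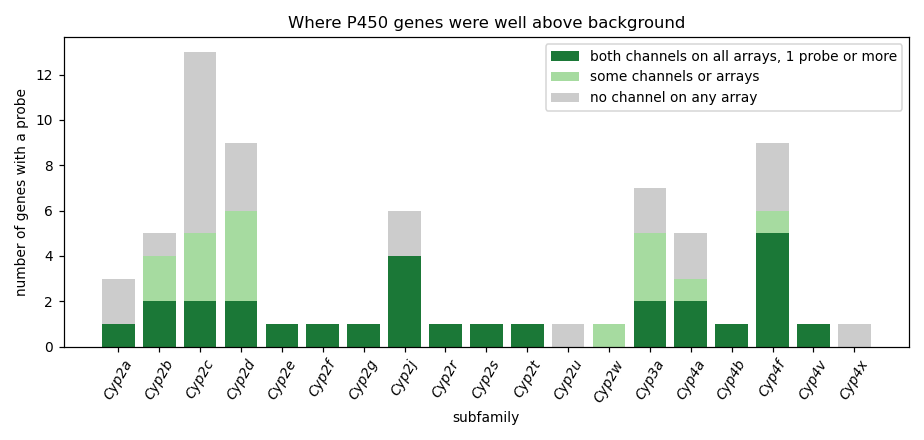
Number of genes with a probe in each P450 subfamily (y axis), stacked by where a probe was well above background: both channels of every array, some channels or arrays, or none. Cyp2c is the subfamily with the most genes, 13, of which 8 were above background nowhere, whereas 5 of 9 Cyp4f genes were fully measured.

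A test was possible for 65 probes of 53 genes, which had a ratio on at least 3 arrays. The other 23 probes had too few ratios, and 15 genes had no tested probe. Of the 65 probes, 7 had a mean ratio past 2-fold higher in the DEP channel, against 2.22% of all 31577 probes tested. A further 4 were past 2-fold lower, against 4.47% of all probes. If the channels were exchanged, these would be 7 lower against 2.22% and 4 higher against 4.47%. The 7 higher probes belonged to Cyp3a25 (1.23), Cyp4a10 (1.20 for its dimmest probe), Cyp3a57 (1.17), Cyp2b19 (1.14), Cyp2b9 (1.09), Cyp4f39 (1.03) and Cyp2r1 (1.03 for its dimmer probe). The 4 lower ones were Cyp4f14 (-1.66), Cyp2c39 (-1.52), Cyp2b23 (-1.44) and Cyp2d9 (-1.07). Of these, Cyp2c39 and Cyp2d9 were above background in no channel, Cyp2b23 in the control channel of 1 array and Cyp4f14 in that of 2, so that their ratios do not measure a fold. The same holds on the higher side for the probes of Cyp4a10 and Cyp2r1, which were above background in no control channel, and in part for Cyp2b9, which was so in 2, and for Cyp3a25, which was not above background in the DEP channel of array 4. Without array 1 there were 1 higher and 5 lower, where 5.85% of all probes were past 2-fold in either direction. Without array 4 there were 13 higher and 4 lower, where 10.2% of all probes were, against 6.69% with all arrays.

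The counts shrank with a demand for signal. Among the 32 fully measured member probes, 3 were past 2-fold higher, those of Cyp3a57, Cyp2b19 and Cyp4f39, against 0.612% of 22395 such probes on the array. None of the 32 was past 2-fold lower, against 2.41%. With the channels exchanged the 3 would be lower and none higher, against the same shares. With normexp background correction followed by loess, 0 of the 65 probes were past 2-fold, where 1.65% of all probes were. The ratios had the same sign on all 4 arrays for 7 probes on the higher side, against 15.6% of all probes, and for 4 on the lower side, against 11.5%. With the channels exchanged these would be 7 lower against 15.6% and 4 higher against 11.5%.

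No member probe passed limma's moderated test after Benjamini-Hochberg adjustment over all 31577 probes, and 0% of all probes did. The lowest adjusted p of a member was 0.129, for Cyp2b23. At an unadjusted p under 0.05 from limma, 6 member probes were higher, against 9.6% of all probes, and 7 were lower, against 8.96%. With the channels exchanged, the 6 would be lower against 9.6% and the 7 higher against 8.96%. The 6 were Cyp2c38, Cyp4b1 and Cyp4f18, which were fully measured, Cyp2c70 and Cyp2d40, which were measured in part, and Cyp2c50, which was above background in no channel. The 7 were Cyp2b23, Cyp2c39, Cyp2d9, Cyp2j9, Cyp2u1, Cyp4f14 and Cyp4f37, of which Cyp2j9 alone was fully measured. An ordinary least-squares test of the same ratios gave 0 adjusted and 3 unadjusted calls among the members, where 15.4% of all probes had an unadjusted p under 0.05. Normexp with median centring gave 3 adjusted calls among the members, where 3420 of all probes also passed. An exact sign-flip test of 4 ratios cannot give a two-sided p under 0.125.

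The mean ratio hid a spread between arrays that was wider for these genes than for the array at large. On array 1, 23 of 64 member probes were past 2-fold higher (35.9%), against 8.19% of all probes. On array 3, 11 of 63 were past 2-fold higher (17.5%), against 5.0% of all probes, and 4 of 63 past 2-fold lower (6.35%), against 5.43%. On array 4, 13 of 63 were past 2-fold lower (20.6%) against 5.43%, and 5 of 63 were past 2-fold higher (7.94%) against 4.29%. Array 2 had 2 of 65 higher (3.08%) against 3.09%. With the channels exchanged, the 35.9% on array 1 and the 17.5% on array 3 would be lower and the 20.6% on array 4 higher. Arrays 1 and 4 would still lie on opposite sides. Probes of a family share sequence and sit in gene clusters, so that these shares are a description of each array.

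**Figure D2:**
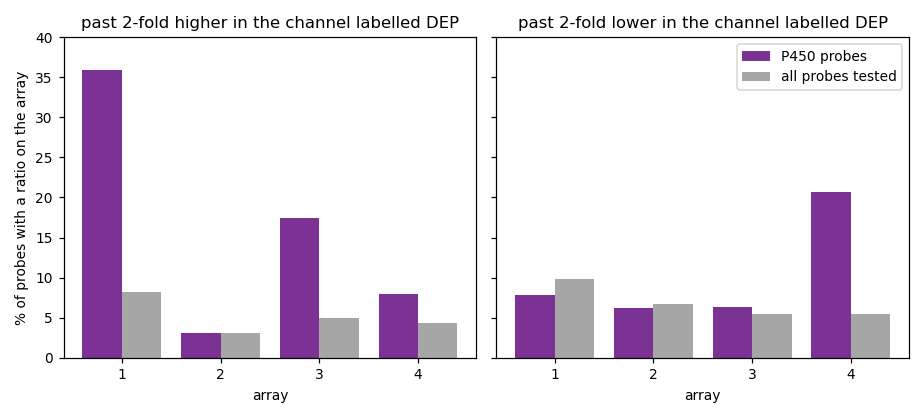
Percentage of probes with a ratio on each array that were past 2-fold higher (left) or lower (right) in the DEP channel, for the P450 member probes and for all probes tested. The member bars stand apart on array 1 among higher probes, 35.9% against 8.19%, and on array 4 among lower probes, 20.6% against 5.43%.

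Among the 28 fully measured genes, the ratio was above 0 for 24 on array 1, for 25 on array 2, for 13 on array 3 and for 8 on array 4. Array 1 gave the highest ratio for 21 of the 28 and array 4 the lowest for 17. For 24 of the 28, the SD between arrays was larger than the mean ratio without its sign. The ratio was above 0 on array 1 and below 0 on array 4 for 20 of the 32 probes (62.5%), against 28.1% of 22395 probes. The difference between arrays 1 and 4 was over 2 on the log2 scale for 8 of the 32 probes (25%), against 4.01%. By family, the median of the probe means was 0.20 for family 2 (20 probes), 0.45 for family 3 (2 probes) and 0.19 for family 4 (10 probes), against 0.02 for all probes. Without array 1 these medians were 0.04, -0.41 and 0.03, and without array 4 they were 0.38, 1.43 and 0.30.

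**Figure D3:**
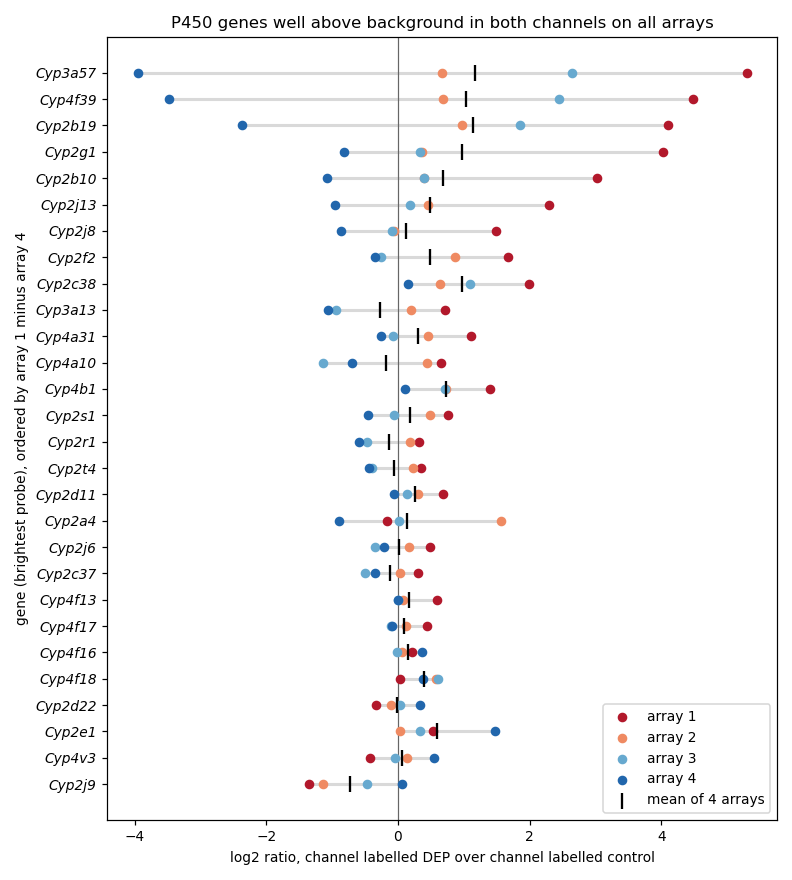
Log2 ratio, DEP channel to control channel as labelled (x axis), on each of the 4 arrays for the 28 fully measured P450 genes, with the mean as a black bar and grey lines joining lowest and highest array. Genes are ordered by array 1 minus array 4, from Cyp2j9 at the bottom to Cyp3a57 at the top, which ran from 5.30 on array 1 to -3.95 on array 4.

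The genes with the widest spread between arrays came from different subfamilies. Cyp4f39 is the mouse counterpart of human CYP4F22, which makes the very long hydroxylated fatty acids of the skin's water barrier. Its signals in the DEP channel were 5167, 858, 458 and 98.8 on arrays 1 to 4, against 230, 534, 84.3 and 1104 in the control channel. The ratios were 4.49, 0.69, 2.44 and -3.48, with a mean of 1.03 ± 3.39 (SD, n = 4 arrays; limma adjusted p = 0.687). The DEP channel was the brighter on arrays 1 to 3 and the dimmer on array 4, and the ranges of the channels overlapped. Without array 1 the mean was -0.12 and without array 4 it was 2.54.

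Cyp2b19, an arachidonic acid epoxygenase known from keratinocytes of mouse skin, had the same order of arrays. Its signals were 3235, 574, 536 and 97.2 in the DEP channel and 188, 291, 148 and 502 in the control channel. The ratios were 4.11, 0.98, 1.85 and -2.37, with a mean of 1.14 ± 2.69 (SD, n = 4 arrays; limma adjusted p = 0.578). Leaving out array 1 gave 0.15 and leaving out array 4 gave 2.31.

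The Cyp3a genes, which encode drug and steroid hydroxylases, held the most extreme values. Cyp3a57 had signals of 2548, 425, 277 and 35.3 in the DEP channel and of 64.8, 267, 44.3 and 545 in the control channel. Its ratios were 5.30, 0.67, 2.65 and -3.95, with a mean of 1.17 ± 3.9 (SD, n = 4 arrays; limma adjusted p = 0.692). Without array 1 its mean was -0.21 and without array 4 it was 2.87. The probe of Cyp3a25 read 6.24, 0.79, 2.59 and -4.70, and the brighter probe of Cyp3a59 read 5.62, 0.52, 1.59 and -3.90. Neither was well above background in all channels. The DEP-channel signals of the Cyp3a25 probe were 2546, 425, 279 and 18.8, close to those of Cyp3a57, and these genes are close paralogs, so the 3 genes are uncertain as separate measurements. Not all of the subfamily followed. Cyp3a13, known from the gut, had ratios of 0.72, 0.20, -0.95 and -1.06 (mean -0.27 ± 0.87, SD, n = 4 arrays), with a mean of -0.60 without array 1 and of -0.0083 without array 4. Its dimmer probe, well above background on 2 arrays in each dye, read 1.97, -0.36, -0.97 and -0.55. Cyp3a11, a PXR target of liver, was above background in 1 channel, with ratios of 0.70, -0.39, -0.27 and -0.08.

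Array 1 was also the highest and array 4 the lowest in genes with a smaller spread. Cyp2g1, a steroid hydroxylase of the olfactory mucosa, had signals of 1766, 296, 171 and 127 in the DEP channel and of 109, 230, 136 and 224 in the control channel. Its ratios of 4.02, 0.36, 0.33 and -0.82 averaged 0.97 ± 2.11 (SD, n = 4 arrays; limma adjusted p = 0.551), and -0.04 without array 1. Cyp2b10, the classical CAR target of liver, had signals of 21405, 4929, 3218 and 2409 against 2634, 3764, 2448 and 5090. Its ratios were 3.02, 0.39, 0.39 and -1.08, with a mean of 0.68 ± 1.71 (SD, n = 4 arrays; limma adjusted p = 0.601). The mean was -0.10 without array 1, so that array 1 decided its sign. Cyp2b9, well above background in the control channel on 2 arrays, had ratios of 3.72, 0.52, 1.01 and -0.87. The probe of Cyp2b13 was above background nowhere. These are close paralogs, and whether the probe of Cyp2b9 also binds Cyp2b13 RNA was not tested.

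**Figure D4:**
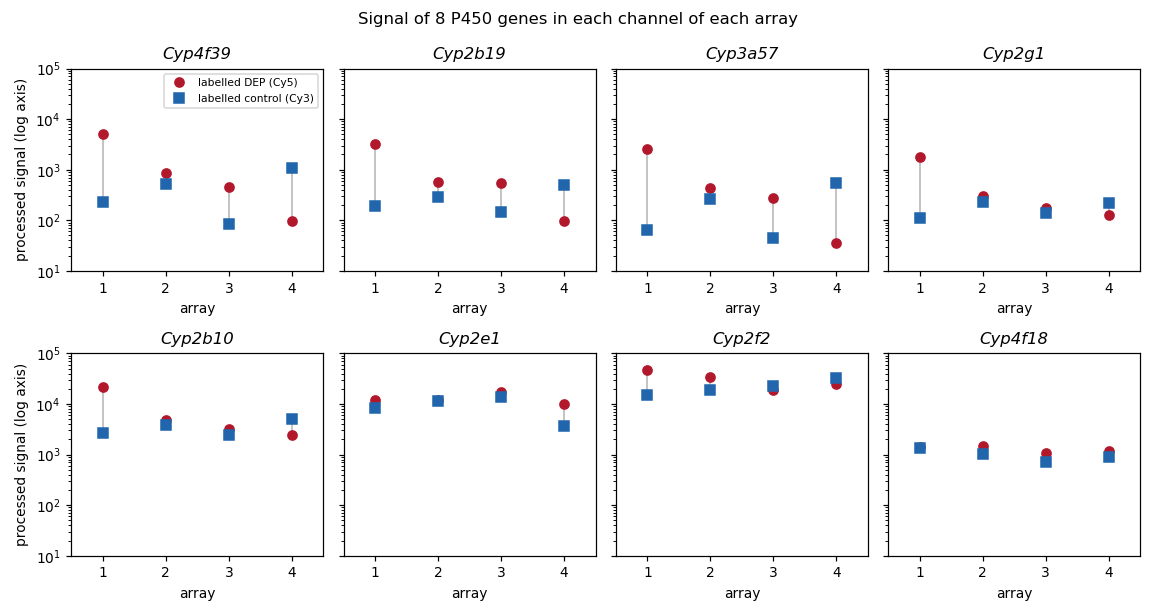
Processed signal (log axis, the same in every panel) in the DEP channel (circles) and the control channel (squares) on each array for 8 P450 genes, with a line joining the channels of an array. For Cyp4f39 the DEP channel was 5167 on array 1 and 98.8 on array 4 while the control channel was 1104 on array 4, whereas Cyp4f18 stayed between 706 and 1507 in all 8 channels.

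The upstream sequences of 6 of these genes are shown because their ratios varied together across arrays. They are the 250 bases before the start of the gene in RefSeq (GRCm38.p6), 5′ to 3′ along the gene's strand. Capitals mark matches, on either strand, to GCGTG, the core of the dioxin response element bound by the aryl hydrocarbon receptor, or to AGGTCA, a half-site of nuclear receptors. Cyp2b10 lies at chr7:25897408-25897657, plus strand, Cyp2b9 at chr7:26173159-26173408, plus strand and Cyp2b19 at chr7:26756892-26757141, plus strand. Cyp3a25 lies at chr5:146009619-146009868, minus strand, Cyp3a57 at chr5:145345019-145345268, plus strand and Cyp4f39 at chr17:32452473-32452722, plus strand.
Cyp2b10: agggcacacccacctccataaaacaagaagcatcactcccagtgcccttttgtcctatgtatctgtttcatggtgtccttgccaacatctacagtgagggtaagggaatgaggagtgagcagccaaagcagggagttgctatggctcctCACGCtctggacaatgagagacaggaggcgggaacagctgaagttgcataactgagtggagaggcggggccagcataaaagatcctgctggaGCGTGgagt
Cyp2b9: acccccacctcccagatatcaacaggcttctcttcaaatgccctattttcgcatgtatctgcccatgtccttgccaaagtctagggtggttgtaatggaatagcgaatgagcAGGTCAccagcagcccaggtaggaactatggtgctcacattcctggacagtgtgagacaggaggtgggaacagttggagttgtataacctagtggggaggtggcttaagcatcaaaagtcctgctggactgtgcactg
Cyp2b19: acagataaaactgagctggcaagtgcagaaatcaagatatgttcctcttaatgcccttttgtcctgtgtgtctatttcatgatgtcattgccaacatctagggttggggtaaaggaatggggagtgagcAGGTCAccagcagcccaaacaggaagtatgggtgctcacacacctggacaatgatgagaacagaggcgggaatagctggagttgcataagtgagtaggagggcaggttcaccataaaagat
Cyp3a25: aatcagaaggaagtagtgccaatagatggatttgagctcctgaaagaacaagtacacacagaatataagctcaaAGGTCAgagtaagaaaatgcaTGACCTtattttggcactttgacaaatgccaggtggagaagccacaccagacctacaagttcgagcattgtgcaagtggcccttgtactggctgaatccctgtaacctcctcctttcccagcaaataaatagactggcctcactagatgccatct
Cyp3a57: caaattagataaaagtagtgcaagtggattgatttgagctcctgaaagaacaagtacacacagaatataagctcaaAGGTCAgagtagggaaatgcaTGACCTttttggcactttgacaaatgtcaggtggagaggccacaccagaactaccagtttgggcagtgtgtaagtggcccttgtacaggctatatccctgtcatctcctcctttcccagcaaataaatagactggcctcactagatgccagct
Cyp4f39: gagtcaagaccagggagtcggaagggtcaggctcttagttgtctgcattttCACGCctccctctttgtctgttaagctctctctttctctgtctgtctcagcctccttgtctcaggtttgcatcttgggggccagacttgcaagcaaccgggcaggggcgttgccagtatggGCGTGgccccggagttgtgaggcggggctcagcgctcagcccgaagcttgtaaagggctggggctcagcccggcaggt

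Aligned end to end, the windows of Cyp3a25 and Cyp3a57 were identical at 88.9% of positions and those of Cyp3a25 and Cyp3a59 at 94.8%. The window of Cyp3a13, whose ratio on array 3 was -0.95 against 2.65 for Cyp3a57, matched that of Cyp3a57 at 53.4%. In the Cyp2b subfamily, Cyp2b10 and Cyp2b19 matched at 67.6%, Cyp2b10 and Cyp2b9 at 71.0%, and Cyp2b9 and Cyp2b13 at 99.2%. A promoter entry matched 55 members. The core GCGTG stood in 9 of these 55 windows, against 28.2% of 27025 promoters of the same length, and AGGTCA stood in 16 of 55, against 13.8%. The AP-1 motif TGANTCA, where N is any base, was found in 5 of 55 (6.87% of all promoters) and the TATA motif TATAAA in 21 of 55 (13.0%). Both strands were searched, and a match is a description of the letters only.

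Markers of other cell types were read on the same arrays. All 7 keratinocyte and sebaceous gland markers were fully measured. Their median ratios were 2.95, 0.35, 0.54 and -1.24 on arrays 1 to 4. Krt79, a keratin of hair canal and sebaceous gland cells, read 3.86, 0.83, 2.38 and -2.95. Scd3, a fatty acid desaturase of sebocytes, read 3.97, 0.69, 2.12 and -3.15. Krt5, Krt14, Krt10 and Lor, keratinocyte genes of the epidermis, ranged from 2.17 to 3.04 on array 1 and from -1.80 to -0.04 on array 4. Mc5r lay between 0.32 and 0.54 throughout. The summed signal of the list ranged from 47741 to 612110 in the DEP channels and from 62328 to 152664 in the control channels. Its part in the ratios of Cyp4f39, Cyp2b19, Cyp3a57, Cyp2g1 and Cyp2b10 was not tested.

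**Figure D5:**
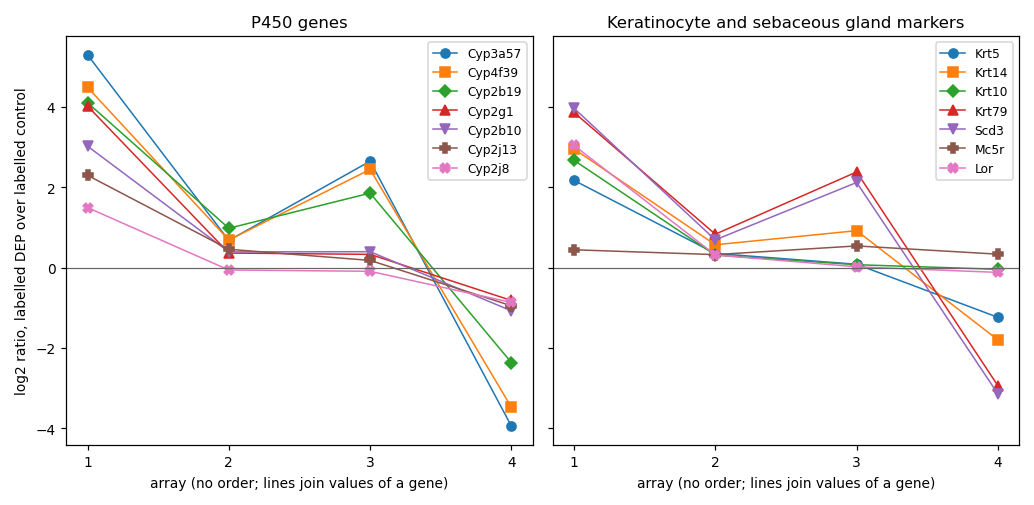
Log2 ratio, DEP channel to control channel as labelled (y axis), on each array for 7 P450 genes (left) and for the 7 keratinocyte and sebaceous gland markers (right); lines only join the values of a gene. On array 3, Cyp3a57, Cyp4f39 and Cyp2b19 read 2.65, 2.44 and 1.85, and Cyp2g1, Cyp2b10, Cyp2j13 and Cyp2j8 lay between -0.09 and 0.39. Krt79 and Scd3 read 2.38 and 2.12 there, Krt14 and Mc5r 0.92 and 0.54, and Krt5, Krt10 and Lor lay near 0.

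The Cyp2j genes encode arachidonic acid epoxygenases and differed among themselves. Cyp2j13 had ratios of 2.30, 0.45, 0.18 and -0.95, with a mean of 0.49 ± 1.35 (SD, n = 4 arrays) that was -0.11 without array 1. Its other probes were above background nowhere, and the tested one of them read -0.64, 0.41, -0.89 and -0.65. Cyp2j8 had ratios of 1.49, -0.06, -0.09 and -0.87 (mean 0.12 ± 0.99, SD, n = 4 arrays), and its dimmer probe read 3.51, 0.28, 1.75 and -2.35. Cyp2j6 stayed near 0, at 0.48, 0.17, -0.35 and -0.21, and its dimmer probe read -0.14, 0.20, 0.13 and 0.36. Cyp2j9, known from brain, lay on the other side. Its signals were 750, 624, 679 and 557 in the DEP channel and 1912, 1368, 944 and 532 in the control channel. The ratios were -1.35, -1.13, -0.48 and 0.07, with a mean of -0.72 ± 0.64 (SD, n = 4 arrays; limma adjusted p = 0.258), lower on 3 of 4 arrays. The DEP channels varied little, and it was the control channels of arrays 1 and 2 that were high. The 7 neuron markers had median ratios of -2.51, -2.50, -0.35 and -0.07 on the same arrays, with summed signals of 14836 to 18191 in the DEP channels and 16578 to 76757 in the control channels. Their part in the ratio of Cyp2j9 was not tested.

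Among genes known from the airway and nose, Cyp2f2 and Cyp2s1 had the same signs on every array and Cyp2a4 had others. Cyp2f2, the naphthalene-oxidising enzyme of club cells, was fully measured. Its signals were 47771, 34395, 19290 and 25216 in the DEP channel and 14949, 18798, 23065 and 32073 in the control channel. The ratios were 1.68, 0.87, -0.26 and -0.35 (mean 0.49 ± 0.97, SD, n = 4 arrays; limma adjusted p = 0.528), higher on arrays 1 and 2 and lower on the other two. The mean was 0.089 without array 1, 0.76 without array 4 and 1.13 with normexp and median centring. Cyp2a4, a testosterone hydroxylase close in sequence to Cyp2a5, read -0.16, 1.57, 0.02 and -0.89, and its dimmer probe read -0.10, 1.5, 0.26 and -0.82. Whether these probes also bind Cyp2a5 RNA was not tested. Cyp2s1, an enzyme of epithelia outside the liver, read 0.75, 0.49, -0.06 and -0.46, with signals between 1298 and 2198. The airway secretory list had 6 of 7 markers with a probe, all fully measured, with median ratios of -0.77, 0.30, -1.01 and -0.70. Scgb1a1, which defines club cells, read 1.86, 0.25, 0.38 and -2.53, with the sign of Cyp2f2 on arrays 1, 2 and 4 but not on array 3. Its signals were low, between 58.7 and 528. The other markers with a probe were below 0 on array 1. They read -0.44 for Scgb3a1, -0.06 for Bpifa1, -1.59 for Bpifb1, -1.09 for Muc5b and -1.32 for Ltf. The part of this list in the ratio of Cyp2f2 was not tested. The olfactory and nasal list, with 5 of 7 markers measured throughout, had medians of -0.05, -0.48, -0.51 and -0.04. Its members differed by array. Omp, which defines olfactory neurons, read 0.12, 0.25, -3.46 and 0.43, while the signalling genes Gng13 and Gnal read -3.37, -5.41, -0.51 and -0.39, and -3.06, -1.54, -0.996 and 0.48. On arrays 1 and 2 the signals of Omp were 109.5 to 131.9, where the control channel of Gng13 read 20968 and 16211. Cnga2, Adcy3 and Obp1a lay between -0.48 and 0.41 on every array. Bpifb9b, above background in 1 channel, read 0.12, -0.82, -2.19 and -2.13.

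Cyp4b1, an enzyme of lung that activates plant furans, was the member whose channels did not overlap. Its signals were 1978, 1198, 987 and 911 in the DEP channel and 754, 723, 600 and 849 in the control channel. The DEP channels were all above the control channels, which held for 1 of the 32 measured probes, against 0.478% of 22395. On the lower side this held for 0 of the 32, against 1.08%. With the channels exchanged, the 1 probe, that of Cyp4b1, would be on the lower side against 0.478%, and 0 on the higher side against 1.08%. These signals were not scaled between arrays, and the median signal of fully measured probes in the DEP channel was 926, 687, 589 and 585 on arrays 1 to 4. The ratios were 1.39, 0.73, 0.72 and 0.10, with a mean of 0.74 ± 0.53 (SD, n = 4 arrays; limma adjusted p = 0.212), and of 0.52 without array 1. With normexp and median centring its adjusted p was 0.0423, the setting in which 10.8% of all probes passed.

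Other genes were higher on all 4 arrays. Cyp2c38, an arachidonic acid epoxygenase, read 2.00, 0.64, 1.09 and 0.15, with a mean of 0.97 ± 0.78 (SD, n = 4 arrays; limma adjusted p = 0.229). Its signals were 485, 174, 159 and 100.4 against 122, 111, 75.0 and 90.2, and the ranges overlapped. The mean was 0.63 without array 1 and 0.59 with normexp and loess. Cyp2e1, which oxidises ethanol and small solvents, read 0.53, 0.03, 0.34 and 1.47, with a mean of 0.59 ± 0.62 (SD, n = 4 arrays; limma adjusted p = 0.304). Its signals were 12061, 11754, 17420 and 10052 in the DEP channel and 8368, 11501, 13751 and 3625 in the control channel. The control channel of array 4 was the low one, and without array 4 the mean was 0.30, against 1.19 with normexp and median centring. The dimmer Cyp2e1 probe read 0.59, -0.05, 0.49 and 1.72. The 7 adipocyte markers, all measured in both channels, had median ratios of -0.27, 0.50, -0.27 and 0.70. Their part in the ratio of Cyp2e1 was not tested.

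Cyp4f18, which inactivates leukotriene B4 in neutrophils, read 0.04, 0.58, 0.61 and 0.39, with a mean of 0.40 ± 0.26 (SD, n = 4 arrays; limma adjusted p = 0.243). Its signals were 1404, 1507, 1075 and 1161 in the DEP channel and 1369, 1008, 706 and 889 in the control channel. The channels were nearly equal on array 1 and apart on the others. With normexp and median centring the mean was 0.65 and the limma adjusted p was 0.0476, where 10.8% of all probes passed. The 7 neutrophil markers had median ratios of -1.13, 0.01, 0.70 and 0.39, with summed signals of 295900 to 406858 in the DEP channels and 161355 to 674606 in the control channels. Their part in the ratio of Cyp4f18 was not tested. Of the other fatty acid hydroxylases of the Cyp4f subfamily, Cyp4f13 read 0.59, 0.07, -0.0052 and -0.00089, Cyp4f16 read 0.22, 0.06, -0.02 and 0.36, and Cyp4f17 read 0.45, 0.12, -0.11 and -0.08. These 3 genes varied less between arrays than Cyp4f39 by an SD of 0.17 to 0.28 against 3.39. Cyp4f14 was above background in the control channel on 2 arrays and in the DEP channel on none, with ratios of -2.44, -2.59, -1.40 and -0.21. Cyp4v3, the counterpart of human CYP4V2, whose loss causes a crystalline retinal dystrophy, read -0.42, 0.14, -0.05 and 0.55.

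Of the targets of PPAR alpha in liver, Cyp4a10 and Cyp4a31 were fully measured. Cyp4a10, a fatty acid hydroxylase, read 0.65, 0.45, -1.15 and -0.70 for its brightest probe, with a mean of -0.19 ± 0.87 (SD, n = 4 arrays). Its other probes, above background in some channels, read 0.42, 0.46, 0.72 and -0.54, and 3.03, 0.90, 1.43 and -0.57. The probes of this gene disagreed on array 3. Cyp4a31 read 1.11, 0.45, -0.07 and -0.25, and its next probe read 0.91, 0.52, -0.27 and -0.32. Cyp4a14 was above background nowhere. Ppara itself was measured throughout, with ratios of 0.96, 1.00, 0.63 and -0.44.

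The remaining measured genes had means within 0.3 of 0. Cyp2d11 read 0.69, 0.31, 0.13 and -0.07. Cyp2d22, regarded as the mouse counterpart of the human drug enzyme CYP2D6, read -0.33, -0.10, 0.02 and 0.33. Cyp2c37, a hydroxylase of arachidonic acid, read 0.31, 0.04, -0.49 and -0.35. Cyp2r1, which carries out the first hydroxylation of vitamin D, read 0.31, 0.19, -0.47 and -0.59, while its dimmer probe, above background in the DEP channel on 2 arrays, read 2.97, -0.14, 1.5 and -0.20. Cyp2t4 read 0.36, 0.23, -0.40 and -0.44. Of these genes, all but Cyp2d22 were above 0 on arrays 1 and 2, and all but Cyp2d22 were below 0 on array 4. Among genes not measured throughout, Cyp2c70, a bile acid hydroxylase, read 0.39, 0.37, 0.63 and 0.62 (mean 0.50 ± 0.14, SD, n = 4 arrays; limma adjusted p = 0.154). It was well above background in the DEP channel on 4 arrays and in the control channel on 2. Its mean was 0.17 with normexp and loess and 0.10 with normexp and median centring. Cyp2d40 read 0.48, 0.76, 0.81 and 1.95, with the control channel above background on 1 array, and its mean of 1.00 was 0.16 with normexp and loess. Cyp2u1, a fatty acid hydroxylase, was above background nowhere.

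The 25 partner genes of the P450 system all had a probe, and 19 were fully measured. Past 2-fold lay 1 higher, Alox15 (1.47 ± 1.56, SD, n = 4 arrays), a lipoxygenase, and 1 lower, Nr1i3 (-1.27 ± 0.85, SD, n = 4 arrays). Neither was measured throughout. After adjustment 0 of 25 passed limma's test, and at an unadjusted p under 0.05 2 did, Rxra (0.60) and Nr1i3. Over all probes, 2.22% were past 2-fold higher, 4.47% past 2-fold lower and 18.6% had such an unadjusted p. Nr1i2, which encodes PXR, was above background nowhere, and Nr1i3, which encodes CAR, was so in 1 channel. The electron donors had ratios above 0 on array 1, with Por at 0.71, Cyb5a at 0.86, Cyb5b at 1.74 and Cyb5r3 at 1.18. On array 4 they were -0.07, 0.03, -0.87 and -0.30. Pparg, the receptor of fat and sebaceous cells, read 1.99, 0.79, 0.33 and -0.64. Hmox1, which breaks down haem, read 0.09, 0.08, 1.1 and 1.03 and was higher on arrays 3 and 4. Ephx1 and Alas1 stayed between -0.15 and 0.24 on all arrays. The median of the 25 mean ratios was 0.12, and the 6 B cell markers with a probe had a median of -0.01.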

How the data were processed

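Ears of DEP-exposed and control mice were compared on 4 two-colour arrays. Spot signals came from the authors' run of Agilent Feature Extraction, version 10.10.1.1. The deposited signals are intensities, background-subtracted and dye-normalized within each array but not scaled between arrays, and the deposited log10 ratio is Cy5 over Cy3. Here the ratios were converted to log2. Control spots, flagged spots (164 to 274 per array) and spots without a ratio (6179 to 8558 of 43020) were left out, and spots of a probe were averaged. Between 59.2% and 68.9% of probes were well above background in a channel, and the number of arrays limits the precision. Probes were named by RefSeq accession (GRCm38.p6; 27649 of 39429 probes), and the brightest probe stood for a gene. An intercept was fitted with limma 3.58.1 in R 4.3.3 (lmFit, eBayes, prior degrees of freedom 1.98) to 3 or 4 ratios, with Benjamini-Hochberg adjustment over 31577 probes. Tested on simulated data for this comparison, the fit called 62 of 100 probes with a log2 change of 2 and 16 of 100 with one of 1, and 4 of 82 calls were false. The simulation drew independent normal errors with the SDs of all probes, whose median was 0.34, against 0.71 for the tested members. Its shares therefore do not measure what could be found among the members.

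Members, gene lists and tests were chosen with earlier results of these data known. Named genes were those measured in both channels on all arrays, others with the same sign and a channel above background on every array, and genes fixed by role. Windows were aligned globally (match 1, mismatch -1, gap opening -2, extension -0.5). Alternatives were normexp (offset 50) with loess or median centring, the deposited ratio table, filters on background, spots without a ratio or flagged spots kept, an intensity trend, ordinary least squares, 2-fold on every array, each array left out (at least 2 ratios per probe) and, chosen after seeing the data, arrays 2 and 3 only. Summaries used pandas 2.3.3 and numpy 2.4.6 under Python 3.11.15, and plots used matplotlib 3.10.9.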

Additional observations from a re-analysis of the deposited data

Results flagged for a closer look

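The ratio of Cyp4f13 on array 1 was 0.59, apart from its values on the other arrays, which were 0.07, -0.0052 and -0.00089. Its gap to the next value, over the whole range, was above Dixon's critical value for 4 samples. It was the 1 of 38 values tested that stood out, and chance gives about 1 in 20.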

How the results depend on the processing

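The fit is paired by array, because each ratio sets the channels of 1 array against each other, and the labels pair nothing else. The number of member probes past 2-fold, 11, became 0 with loess after normexp, 7 with median centring after normexp (2.16% of all probes, and not all from the 11, as Cyp2b10, Cyp2e1 and Cyp2f2 were past it there at 1.1, 1.19 and 1.13), 5 of 41 and 3 of 32 with a filter on signal in 1 channel or in both of every array, and 0 with 2-fold required on every array. Leaving out 1 array gave 6 to 17, and arrays 2 and 3 alone gave 11 of 63. Of all probes, 6.69% were past 2-fold, against 1.65% with loess after normexp, 3.99% and 3.02% with the filters, 0.659% on every array, 5.85% to 10.2% with 1 array left out and 7.75% on arrays 2 and 3. The 0 adjusted calls of limma became 3 with normexp and median centring and stayed 0 with each array left out. The 13 unadjusted calls became 8 with normexp and loess, 6 and 4 with the filters on background in 1 or both channels, and 3 with ordinary least squares, and 9 to 18 with 1 array left out. The share of all probes was 18.6% at first and 16.0%, 15.9%, 15.5%, 15.4% and 11.2% to 18.9% in these settings. Normexp with median centring gave 14 unadjusted calls, where 35.9% of all probes were called. Arrays 2 and 3 alone gave 16, where 13.6% were. The cause of these shifts was not tested, except that the filters test fewer probes. The family medians moved by less than the spread between arrays in every setting run. Signs turned for Cyp2d40 (-0.0016), Cyp2r1 (0.0696) and Cyp4a14 (-0.0377) with normexp and median centring, which moved the median of all probes from 0.02 to 0.09, and for Cyp2j6 (-0.0073), Cyp4f16 (-0.00039), Cyp4f17 (-0.0087) and Cyp4v3 (-0.0413) with normexp and loess. With arrays 2 and 3 alone they turned for Cyp2j6 (-0.0915) and Cyp2j8 (-0.0778). With 1 array left out, the mean ratio ranged from -0.35 to 0.48 for Cyp2a4, from -0.10 to 1.27 for Cyp2b10, from -0.13 to 0.0852 for Cyp2d22, from -0.044 to 1.57 for Cyp2g1, from -0.11 to 0.98 for Cyp2j13, from -0.13 to 0.15 for Cyp2j6, from -0.34 to 0.45 for Cyp2j8, from -0.29 to 0.0082 for Cyp2r1, from -0.00903 to 0.39 for Cyp2s1, from -0.20 to 0.0609 for Cyp2t4, from -0.25 to 0.12 for Cyp3a11, from -0.21 to 2.87 for Cyp3a57, from -0.47 to 0.13 for Cyp4a10, from -0.0243 to 0.16 for Cyp4f17, from -0.12 to 2.54 for Cyp4f39 and from -0.11 to 0.22 for Cyp4v3. Without turning sign it ranged from -0.27 to -0.00014 for Cyp2c37, from 0.12 to 0.38 for Cyp2d11, from 0.04 to 0.50 for Cyp4a31, from 0.02 to 0.22 for Cyp4f13 and from 0.09 to 0.21 for Cyp4f16. The deposited ratio table, flagged spots, spots without a ratio and the intensity trend turned no sign of a named gene. Signal over background limits the 15 genes measured in part and the 25 above background nowhere.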
